A study of Mus musculus with 5 samples.

Results

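The genes described here encode the proteins of the cytoplasmic ribosome. They were taken from a table of 55357 mouse genes by name: protein-coding genes whose symbol begins with Rpl or Rps followed by a digit, p or a, leaving out the Rps6k kinases, names of pseudogenes and Rps19bp1. This gave 86 genes, 52 named for the large subunit and 34 named for the small subunit. The choice did not use any measured value.

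The study profiled polyadenylated RNA of hair follicle stem cells from the back skin of mice aged 75 days, in 2 groups. The 2 Control libraries, numbered 1 and 3 in their titles, came from Ring1a-/-, Ring1bflox/flox mice without Cre. The 3 PRC1 i2KO libraries, numbered 1 to 3, came from mice of the same alleles plus the transgene K15-CrePR1, in which the keratin 15 promoter drives a Cre recombinase that the drug RU-486 activates. PRC1 is Polycomb repressive complex 1, which places ubiquitin on histone H2A through the enzymes RING1A, encoded by Ring1, and RING1B, encoded by Rnf2. The controls therefore also lack Ring1a, and the groups differ in whether Cre could delete Ring1b in keratin 15-expressing cells. Both groups were treated topically with 1% RU-486 daily, starting at 50 days of age and continuing for 10 days, with collection 15 days after the treatment ended. Each library was made from 50000 sorted cells that carried CD34, EpCAM and high α6-integrin on their surface and lacked Sca1. The labels do not say that each library came from a separate animal, so the p-values rest on the spread between libraries alone, which could be technical.

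A ribosome is built from ribosomal RNA and one copy of most of these proteins, on a large subunit that joins amino acids and a small subunit that reads the messenger RNA. Their genes are transcribed strongly in nearly every cell type, and the amounts are matched because unassembled ribosomal proteins are degraded. Most of the messenger RNAs begin with a C followed by a run of pyrimidines, the terminal oligopyrimidine (TOP) motif, through which the mTORC1 kinase pathway and the protein LARP1 control their translation and stability. Adult hair follicle stem cells rest for long periods, and low protein synthesis is a known feature of resting stem cells in skin.

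To show this shared feature, the 30 reference bases around the annotated start of 11 of these genes are printed, from RefSeq on build GRCm38.p6, 5′ to 3′ on the gene's strand, 15 before the start and 15 from it on. Capitals mark the longest run that begins with C and continues with at least 4 bases that are each C or T. Where lengths tie, the first run is marked. Other runs that meet this rule are left in lower case. The first 6 belong to genes that rose by the values given below, Rps27 to one of the smallest rises that passed and Rpl22l1 to a rise of wide spread. The others belong to genes that did not pass, with both annotated starts of Rpl22 and the first of 2 of Rps27l.
Rps9, chr7:3704026-3704055, plus strand: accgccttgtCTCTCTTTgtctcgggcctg
Rps12, chr10:23787195-23787224, minus strand: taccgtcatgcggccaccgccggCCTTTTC
Rps18, chr17:33955651-33955680, minus strand: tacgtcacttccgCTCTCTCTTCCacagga
Rplp2, chr7:141447636-141447665, plus strand: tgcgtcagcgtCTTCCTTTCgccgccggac
Rps6, chr4:86857353-86857382, minus strand: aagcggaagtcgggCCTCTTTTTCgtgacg
Rpl38, chr11:114668565-114668594, plus strand: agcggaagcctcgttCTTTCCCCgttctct
Rps27, chr3:90213634-90213663, minus strand: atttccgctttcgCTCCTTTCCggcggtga
Rpl22l1, chr3:28805493-28805522, plus strand: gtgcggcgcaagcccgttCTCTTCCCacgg
Rps27l, chr9:66946071-66946100, plus strand: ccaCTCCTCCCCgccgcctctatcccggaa
Rpl22 first start, chr4:152325711-152325740, plus strand: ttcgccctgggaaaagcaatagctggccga
Rpl22 second start, chr4:152324421-152324450, plus strand: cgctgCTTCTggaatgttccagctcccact
Rpl7l1, chr17:46782642-46782671, minus strand: gtgaggctgcgcaagcgcagtagctgaagc
The run of Rpl38 began at the annotated start and that of Rps6 began 1 base before it, and that of Rps12 only at base 9 from the start. Among the genes that did not pass, Rps27l had a marked run of 9 bases that began 12 before its first start and none at its second. Rpl22 had a marked run of 5 bases that began 10 before its second start and none at its first. Rpl7l1 had none. Runs were thus present in genes of both kinds.

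Library depth ranged from 8270419 to 32463173 reads, and replicates of a group differed by more than counting noise (chi-square of 10.3 to 42.6 per degree of freedom). The targeted gene Rnf2 stood at 67.9 and 57.7 CPM (reads per gene relative to the library total, scaled for library composition) in Control and at 48.1, 46.6 and 50.2 in PRC1 i2KO (log2 fold change -0.37, adjusted p = 0.036 in the edgeR quasi-likelihood test). Ring1 stood at 30.3 and 27.5 against 19.6, 28.6 and 24.8 CPM (adjusted p = 0.36). Such reads are summed over the whole gene and do not check a deleted exon. Of 15 markers of bulge stem cells, the resting cells the sort was to isolate, 10 were lower in PRC1 i2KO and none higher. The share of all tested genes called lower was 15.1%. The summed level of the 15 markers was 34217 and 34741 CPM in Control against 8458, 8924 and 12345. The sort marker itself, Cd34, stood at 1547 and 1696 CPM in Control and at 11.0, 12.3 and 37.2 in PRC1 i2KO, so the RNA of the PRC1 i2KO libraries went against the label on this marker.

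Ribosomal protein genes were higher in PRC1 i2KO as a whole. Together they held 3.55% and 3.47% of all reads in the Control libraries and 5.40%, 5.41% and 5.41% in the PRC1 i2KO libraries. The means were 3.51% ± 0.056 (SD, n = 2) and 5.41% ± 0.006 (SD, n = 3), a 1.54-fold difference, with no overlap between groups. Both subunits took part: large subunit genes held 2.18% and 2.14% of reads in Control and 3.23%, 3.23% and 3.28% in PRC1 i2KO, and small subunit genes held 1.37% and 1.33% against 2.17%, 2.18% and 2.13%. In bulk RNA of this kind, a change in the mix of cells and a change in the RNA of each cell cannot be told apart.

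**Figure D1:**
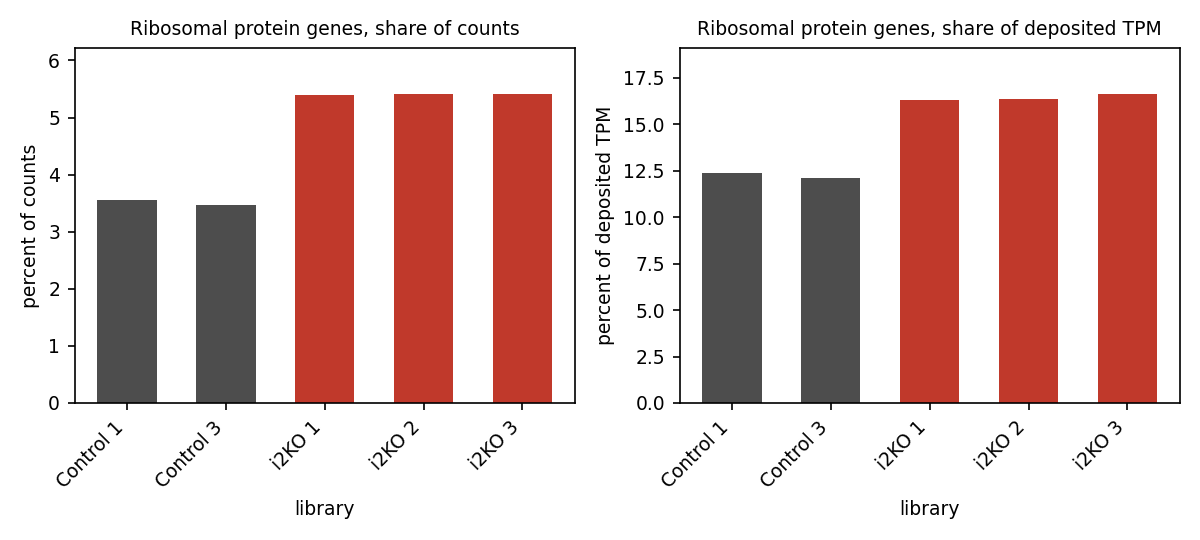
Bars give the percentage of all counts (left) and of all deposited TPM (right) held by the 86 ribosomal protein genes in each library, with both axes starting at 0. The 3 PRC1 i2KO libraries lie at 5.40% to 5.41% of counts and the 2 Control libraries at 3.47% and 3.55%.

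Gene by gene, 82 of the 86 had enough reads to be tested, and 73 of these were higher in PRC1 i2KO and 0 lower at an adjusted p under 0.05 (edgeR quasi-likelihood test, Benjamini-Hochberg over 15665 genes). Of all genes tested, 18.8% were called higher and 15.1% lower, 33.9% in all. Among large subunit genes 43 of 49 passed, with a median log2 fold change of 0.56 (1.47-fold), and among small subunit genes 30 of 33 passed, with a median of 0.62 (1.54-fold). Over all 82 the median was 0.57, or 1.48-fold, with quartiles at 0.44 and 0.69, whereas the median of all tested genes was -0.01. Most changes were close to this median: 61 of the 82 lay between 0.4 and 0.8 on the log2 scale, the SD over genes was 0.19, and the median standard error of a single gene was 0.10. In 77 of the 82 all PRC1 i2KO libraries stood above both Control libraries, an order that 30% of all tested genes showed.

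**Figure D2:**
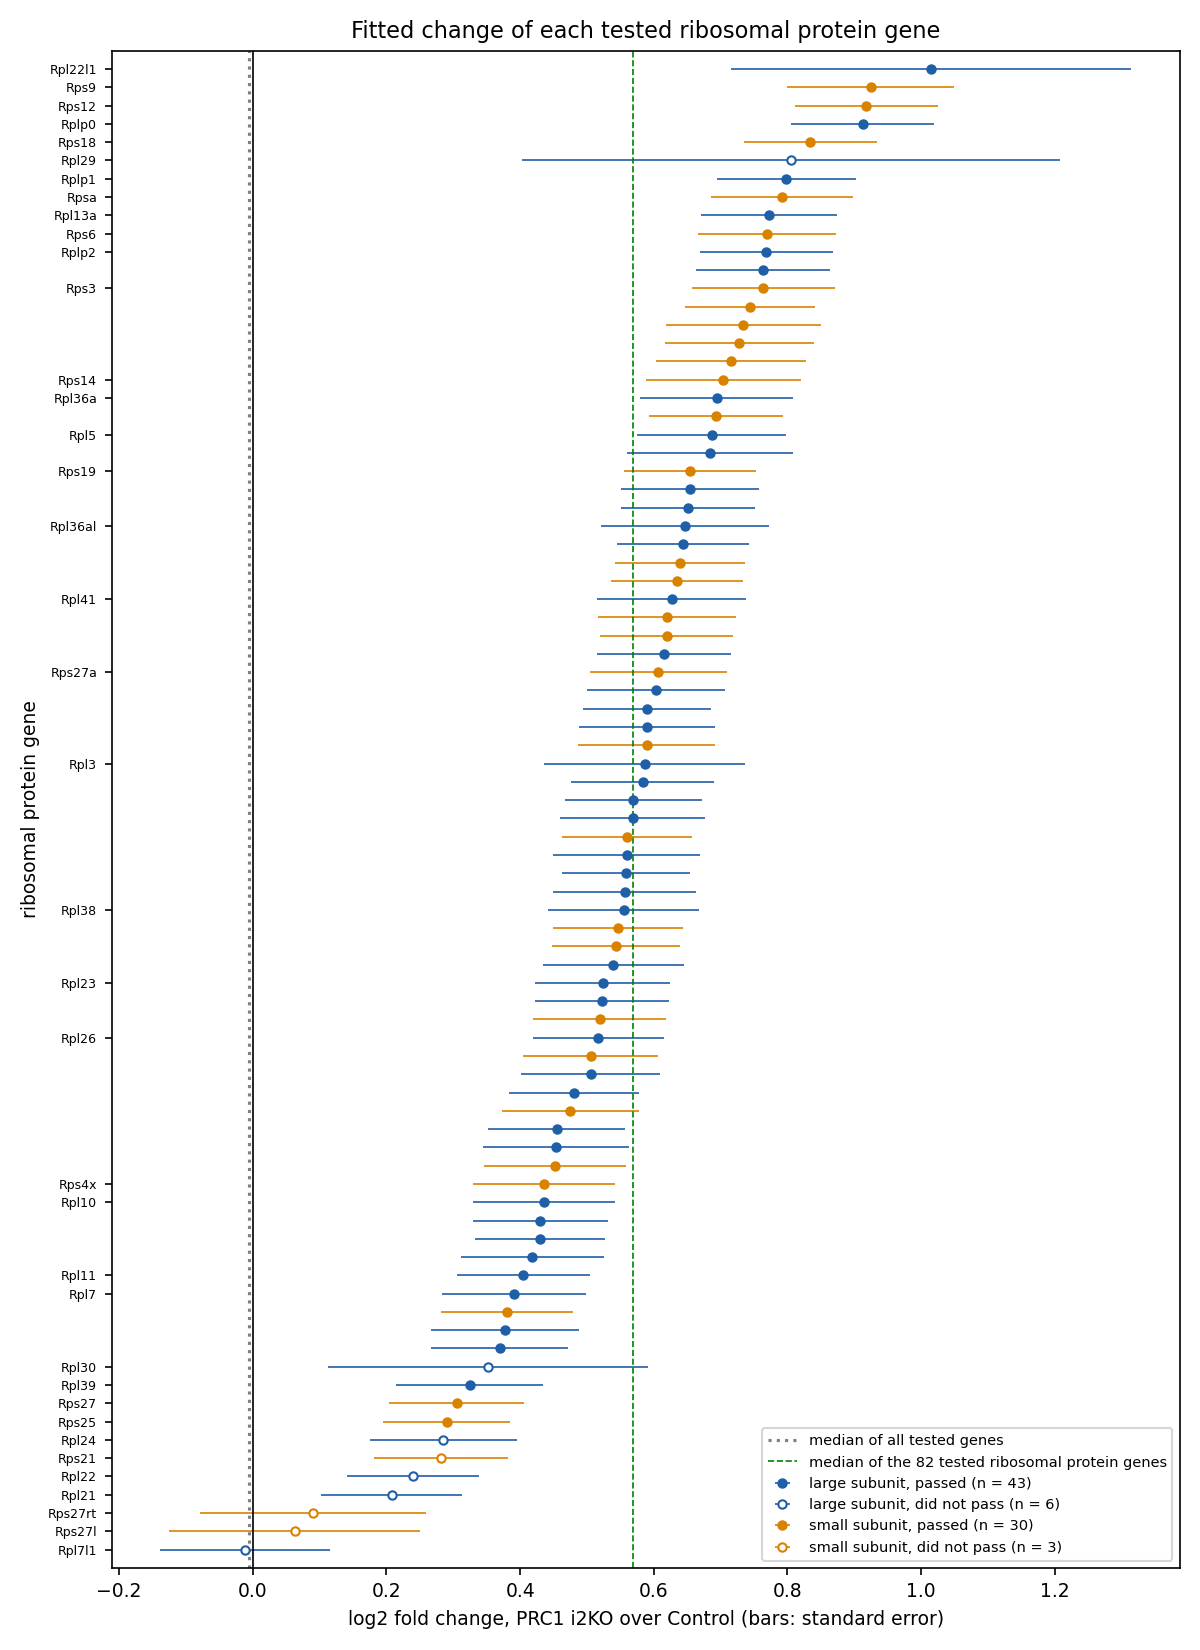
Each point is the fitted log2 fold change of 1 of the 82 tested ribosomal protein genes (horizontal axis, PRC1 i2KO over Control) with its standard error, ranked and coloured by subunit, and open points did not pass the test. Names are printed for genes of the role and paralog sets, the extremes and those that did not pass. Most lie around the dashed median of 0.57, away from the dotted median of all genes at -0.01, and Rpl7l1, Rps27l and Rps27rt lie near 0.

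The 3 genes of the P stalk, the flexible arm of the large subunit that recruits the GTPase factors of translation, were among the larger rises. Rplp0, the base of the stalk, stood at 1004 and 1017 CPM in Control and at 1967, 1914 and 1827 CPM in PRC1 i2KO (log2 fold change 0.91, SE 0.11, edgeR adjusted p = 0.00017). Its partner Rplp1 stood at 495 and 443 against 828, 812 and 807 CPM (0.80, SE 0.10, edgeR adjusted p = 0.00033), and Rplp2 at 341 and 323 against 549, 579 and 568 CPM (0.77, SE 0.10, edgeR adjusted p = 0.00031). Every PRC1 i2KO library lay above every Control library for all 3. The higher Control value of Rplp1 was 1.12 times the lower, where the median of this ratio over the tested family was 1.06.

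In the small subunit, the largest rises were those of Rps9, Rps12 and Rps18. Rps9, an early-binding protein of the small subunit, stood at 511 and 452 CPM in Control and at 961, 976 and 804 CPM in PRC1 i2KO (log2 fold change 0.92, SE 0.13, edgeR adjusted p = 0.00041). Rps12 stood at 454 and 412 against 798, 860 and 793 CPM (0.92, SE 0.11, edgeR adjusted p = 0.00017). Rps18 stood at 340 and 359 against 629, 633 and 609 CPM (0.83, SE 0.10, edgeR adjusted p = 0.00019). The groups were separate for each, and PRC1 i2KO replicate 3 was the lowest of its group for all 3. Rpsa, also known as the laminin receptor, stood at 1151 and 1143 against 2022, 1916 and 2021 CPM (0.79), and Rps6, the protein phosphorylated by S6 kinases downstream of mTORC1, at 770 and 728 against 1302, 1262 and 1264 CPM (0.77). Rps3, at the channel where messenger RNA enters, rose by 0.76, and Rps19 and Rps14, both known from inherited or acquired anaemias, rose by 0.65 and 0.70.

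Large subunit genes with known links to p53 rose to differing degrees. Rpl5 and Rpl11, which together with a small ribosomal RNA bind the p53 regulator MDM2 when ribosome assembly fails, are partners in one particle. Rpl5 stood at 786 and 710 CPM in Control and at 1194, 1280 and 1136 CPM in PRC1 i2KO (0.69, SE 0.11, edgeR adjusted p = 0.0012). Rpl11 stood at 537 and 538 against 695, 697 and 745 CPM (0.40, SE 0.10, edgeR adjusted p = 0.012). Both passed with separate groups, and the difference between them was not tested. Rpl5 was called in all 5 fits that each leave out 1 library, and Rpl11 in 2 of the 5, its call being lost without Control replicate 1, Control replicate 3 or PRC1 i2KO replicate 2. Rpl23 and Rpl26, also known to act on the p53 pathway, each rose by 0.52. Rpl13a rose by 0.77, Rpl41, which encodes a very small basic peptide, by 0.63, and Rpl38, known for its part in translating Hox messenger RNAs, by 0.55. Rpl10, which joins the large subunit late in its assembly, rose by 0.44, but was called in only 2 of these 5 fits, not without Control replicate 3 or PRC1 i2KO replicate 1 or 2. Rps27a, which encodes ubiquitin fused to a ribosomal protein, rose by 0.61.

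**Figure D3:**
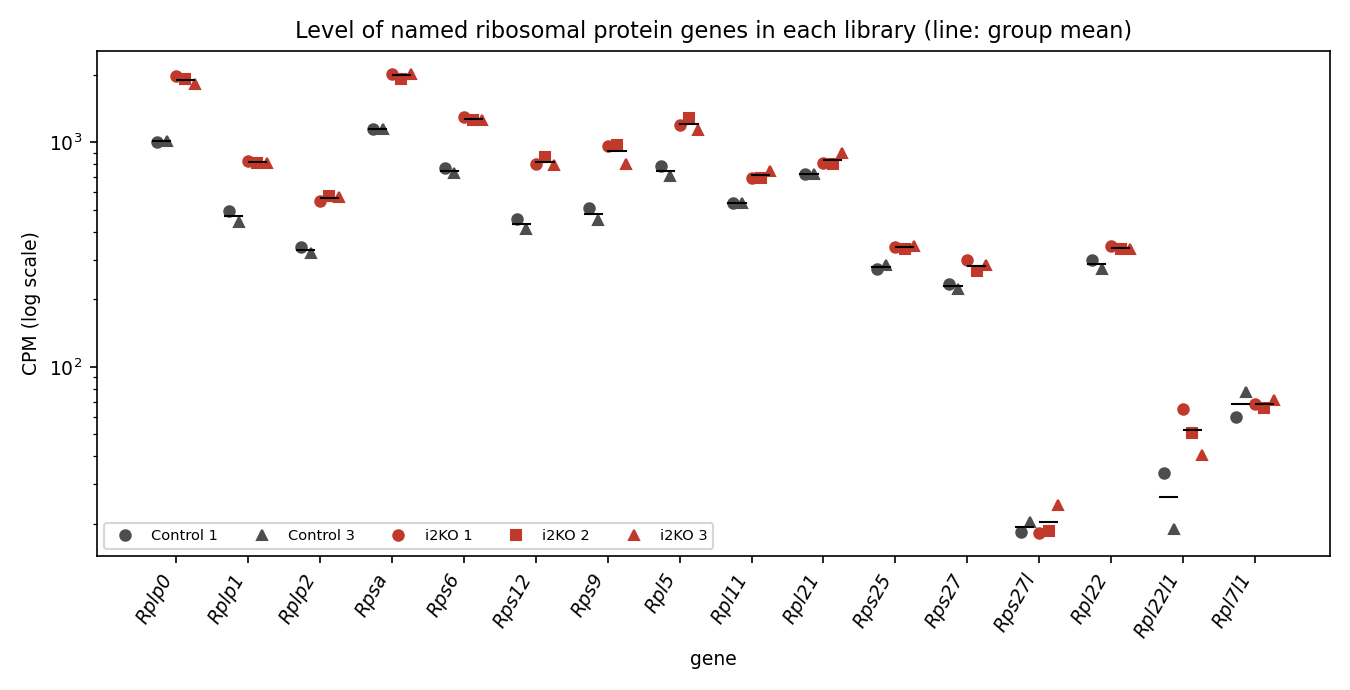
CPM on a log axis of 16 ribosomal protein genes in each of the 5 libraries (grey Control, red PRC1 i2KO, marker shape by library number), with a line at each group mean. Rplp0 stands at 1004 and 1017 CPM in Control and at 1827 to 1967 in PRC1 i2KO, whereas the libraries of the groups interleave for Rpl7l1 and Rps27l.

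The smallest rises that passed were those of Rps25, Rps27 and Rpl39. Rps25, known for a role in internal initiation on some messenger RNAs, stood at 272 and 285 CPM in Control and at 342, 335 and 345 CPM in PRC1 i2KO (0.29, SE 0.10, edgeR adjusted p = 0.040). Rps27 stood at 235 and 222 against 298, 266 and 283 CPM (0.31, edgeR adjusted p = 0.041), and Rpl39 at 68.1 and 69.6 against 93.1, 78.6 and 87.3 CPM (0.32, edgeR adjusted p = 0.045). These groups did not overlap either, but the calls were close to the threshold. Rps25 and Rps27 were called in 1 of the 5 fits that leave out 1 library each, the one without PRC1 i2KO replicate 3. Rpl39 was called in 2, without PRC1 i2KO replicate 2 or 3. All 3 calls were lost without robust dispersions and on TPM. Of the 73 genes called, 54 were called in all 5 fits. Without PRC1 i2KO replicate 3 all 73 were called, and without Control replicate 3, the most deeply sequenced library, 57 were.

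Of the 9 genes that did not pass, 4 had high, close values. Rpl21 stood at 722 and 724 CPM in Control and at 808, 797 and 899 in PRC1 i2KO (0.21, edgeR adjusted p = 0.16). Rps21 stood at 183 and 181 against 219, 209 and 237 CPM (0.28, edgeR adjusted p = 0.055), and Rpl24 at 222 and 244 against 302, 294 and 257 CPM (0.29, edgeR adjusted p = 0.073). Rpl22 is described with its paralog below. In all 4 the PRC1 i2KO libraries stood above both controls, so a miss of the threshold does not show that their levels were equal.

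Several ribosomal proteins have a second gene, and these paralogs did not all move with the family. Rpl22l1 had the largest fitted rise of all 82, from 33.6 and 19.0 CPM to 65.2, 50.7 and 40.6 CPM (log2 fold change 1.02, SE 0.30, edgeR adjusted p = 0.041). The groups were separate, but the spread within each was wide, and the call was kept in 2 of the 5 fits that leave out 1 library, those without Control replicate 1 or PRC1 i2KO replicate 3. Rpl22, whose protein is known to restrain Rpl22l1 by binding its RNA, stood at 301 and 273 against 345, 335 and 336 CPM (0.24, SE 0.10, edgeR adjusted p = 0.089). Per length, on the TPM scale, which corrects for transcript length and a fixed library total, the level of Rpl22l1 was 9.22% and 5.74% of that of Rpl22 in Control and 14.6%, 10.7% and 9.52% in PRC1 i2KO. The lowest PRC1 i2KO ratio was close to the higher Control ratio, and the difference between the genes was not tested.

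Rpl7l1, a paralog of Rpl7, stood at 59.9 and 77.0 CPM in Control and at 68.2, 65.5 and 71.0 CPM in PRC1 i2KO, and its fitted change was -0.01 on the log2 scale (SE 0.13, edgeR adjusted p = 0.96). Rpl7 itself stood 0.39 higher (edgeR adjusted p = 0.019), but was called in only 2 of the 5 fits that leave out 1 library, those without Control replicate 1 or PRC1 i2KO replicate 3, and not on TPM (limma adjusted p = 0.15). Per length, Rpl7l1 stood at 3.21% and 5.27% of Rpl7 in Control and at 2.61%, 2.74% and 2.695% in PRC1 i2KO, lower in every PRC1 i2KO library. This ratio rests on the length correction of TPM. CPM per TPM of Rpl7l1, which follows its implied length, was 0.990 and 0.887 in Control. In PRC1 i2KO it was 1.28, 1.195 and 1.37, and the difference between the genes was not tested. Rps27l, known as a p53 target, stood at 18.5 and 20.5 against 18.2, 18.6 and 24.2 CPM (0.06, SE 0.19, edgeR adjusted p = 0.83), and Rps27rt, a retrogene of Rps27, at 21.5 and 22.8 against 25.1, 20.4 and 25.6 CPM (0.09, SE 0.17, edgeR adjusted p = 0.72). The libraries of the groups interleaved for all 3, and the sign of each turned under some of the settings given at the end. Rpl36al, by contrast, rose by 0.65 (edgeR adjusted p = 0.0034) beside 0.69 for Rpl36a. Rps4x, the X-linked gene of its protein, rose by 0.44 (called in 2 of those 5 fits, the same ones, and not on TPM), and a row named Rps4l, labelled a transcribed pseudogene and so not counted here, stood at 4.06 and 5.53 against 13.2, 12.4 and 13.3 CPM.

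The remaining 4 of the 86 were too low to test. Rpl39l and Rpl10l, known from testis, had no read in any library. Rpl3l, known from heart and skeletal muscle, had reads only in PRC1 i2KO replicate 3 (0.11 CPM), and Rps23rg1, a retrogene of Rps23, reached at most 0.58 CPM.

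For 3 genes, Rpl29, Rpl30 and Rpl3, the libraries numbered 3 in both groups stood apart from the others. By library number, Rpl29 stood at 245 and 135 CPM in Control and at 399, 381 and 213 CPM in PRC1 i2KO, so that the groups overlapped (0.81, SE 0.40, edgeR adjusted p = 0.21). Rpl30 went the other way, at 231 and 279 against 281, 260 and 435 CPM, also with overlap (0.35, SE 0.24, edgeR adjusted p = 0.32). Rpl3, at the peptidyl transferase centre, stood at 648 and 820 against 1025, 997 and 1286 CPM and passed (0.59, SE 0.15, edgeR adjusted p = 0.014), though not without Control replicate 1 or on TPM. In each, the libraries numbered 3 deviated from their groups in the same direction.

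Each of these genes has processed pseudogenes of nearly the same sequence, and the copies with the most reads took the opposite course. Rpl3-ps1, on chromosome X, stood at 145 and 31.7 CPM in Control and at 217, 221 and 43.7 CPM in PRC1 i2KO. Gm12191, a copy of Rpl30 on chromosome 11, stood at 63.8 and 3.76 against 88.5, 74.97 and 0 CPM. Gm13841 and Gm8210, copies of Rpl29 on chromosomes 5 and 1, each had 0 and 19.2 against 0, 0 and 28.9 CPM. These 4 copies were high in the libraries numbered 3 where the gene was low there, and the reverse. Copies with fewer reads did not all do so: Gm6344, also a copy of Rpl29, had 2.58 and 0 against 10.9, 10.9 and 3.997 CPM, and Rpl30-ps9 had reads only in PRC1 i2KO replicate 3 (6.58 CPM), both like their gene. The other copies of these 3 genes stayed under 1 CPM in every library. In the reference coding sequences (GENCODE on GRCm38, positions counted from 1 at the start codon, the gene's base first), Rpl3-ps1 differs from Rpl3 by C57A and T786C in 1209 bases and Gm12191 from Rpl30 by G96A in 345 bases. The copies of Rpl29 differ from it by C72A, C300T and T423C in 480 bases. The bases around one difference of each of the first 2 pairs are printed to show how few bases separate a gene's reads from its copy's, with the differing base in capitals; positions 37 to 77 are shown for Rpl3 and 76 to 116 for Rpl30.
Rpl3: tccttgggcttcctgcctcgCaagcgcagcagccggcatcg
Rpl3-ps1: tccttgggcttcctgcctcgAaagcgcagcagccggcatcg
Rpl30: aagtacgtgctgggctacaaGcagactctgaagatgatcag
Gm12191: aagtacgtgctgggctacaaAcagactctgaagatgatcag
The deposited counts were estimated by sharing reads between such sequences, and the reads themselves were not analysed here.

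When the reads of all near copies (pseudogene transcripts at least 95% identical over at least 80% of the coding sequence) were added to their genes, an alternative chosen after seeing these values, the standard error of all 3 genes fell. Rpl29 became 247 and 174 against 411, 391.9 and 276 CPM (0.77, SE 0.22, edgeR adjusted p = 0.035). Rpl30 became 294 and 282 against 370, 336 and 442 CPM (0.41, SE 0.13, edgeR adjusted p = 0.032), and Rpl3 794 and 851 against 1243, 1219 and 1331 CPM (0.62, SE 0.11, edgeR adjusted p = 0.0016). All 3 then had separate groups and passed, and 75 of the 82 genes were called higher, where 18.9% of 15541 genes were. Near copies were found for 74 of the 86 genes, 553 in all, of which 318 had a read. They held over 5% of the gene's reads for only 7 genes, and besides these 3 no gene's log2 fold change moved by more than 0.015.

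**Figure D4:**
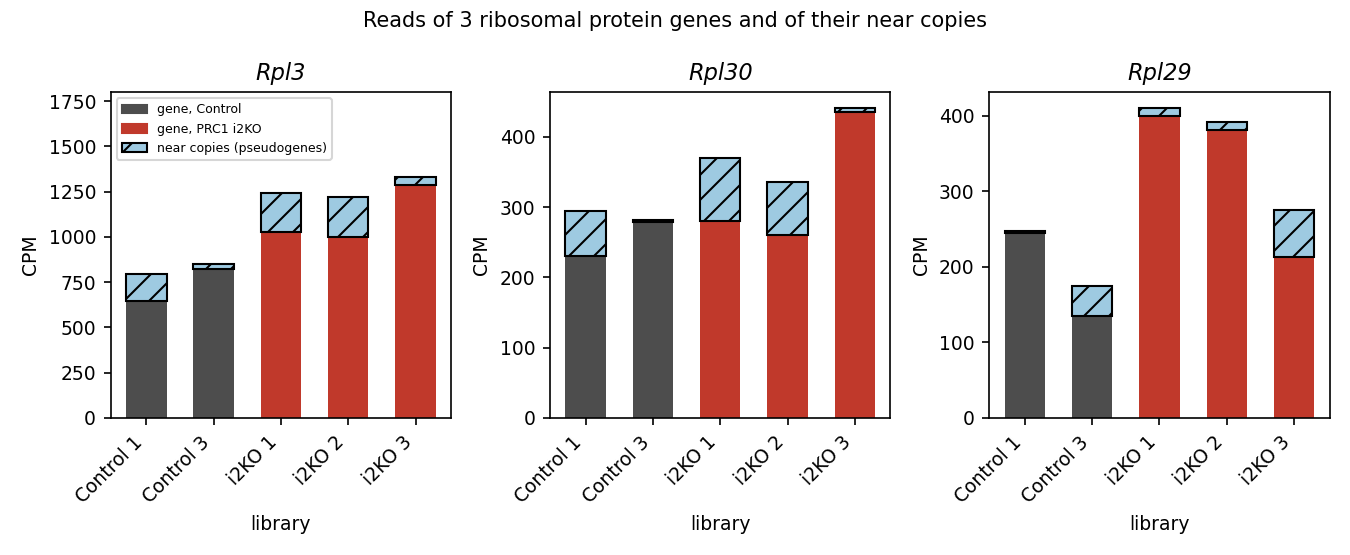
Stacked bars give the CPM of Rpl3, Rpl30 and Rpl29 in each library (solid, grey Control and red PRC1 i2KO) with the CPM of their near copies on top (hatched), on linear axes from 0 that differ between panels. Copies of Rpl3 and Rpl30 are tall in the libraries numbered 1 and 2 and short in those numbered 3, and those of Rpl29 the reverse.

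Levels of different genes were compared per length, on the deposited TPM. Rps15 was the highest, at a mean of 4730 TPM over the 5 libraries, with Rplp1 at 3856 and Rpl13 at 3837 also among the highest. The median over the 82 tested genes was 1701 TPM, and 76 of them lay at 500 TPM or above within a 7.29-fold range. The other 6 were Rpl36al, Rpl39, Rps27rt, Rps27l, Rpl22l1 and Rpl7l1, the last at 61.3 TPM. Of the 76, 70 were called higher, and of the 6 lower ones, 3. Across the 82 genes the log2 fold change on counts had a Pearson r of 0.34 with log2 mean TPM, a description over genes that share the same 5 libraries.

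The deposited TPM gave the same direction with a smaller fold. Ribosomal protein genes held 12.4% and 12.1% of all TPM in Control and 16.3%, 16.4% and 16.6% in PRC1 i2KO, a 1.34-fold difference against 1.54-fold on counts. A limma test on log2(TPM + 1) called 56 of the 82 higher and 0 lower, where 11.9% of all genes were called higher and 14.1% lower, 26% in all. A fold on this scale understates the change of low genes, but the lowest tested ribosomal protein gene had a mean of 61.3 TPM. All 56 were among the 73 called on counts, and 17 genes, among them Rpl11, Rpl13, Rpl10, Rps4x and Rps25, passed on counts alone. The median log2 fold change was 0.42 on TPM and 0.57 on counts.

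This gap was not particular to ribosomal protein genes. The count-based value exceeded the TPM-based one by a median of 0.16 in these genes and by a median of 0.16 in all tested genes, and the median of all genes on TPM was -0.13. Set against the median of all genes, the ribosomal protein genes stood 0.57 higher on counts and 0.55 higher on TPM. The gap lay within 0.05 of its median in 72 of the 82 genes, the extremes being -0.01 for Rpl22 and 0.40 for Rpl7l1. When the TPM values were rescaled with TMM factors, 71 genes were called higher and their median was 0.57.

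**Figure D5:**
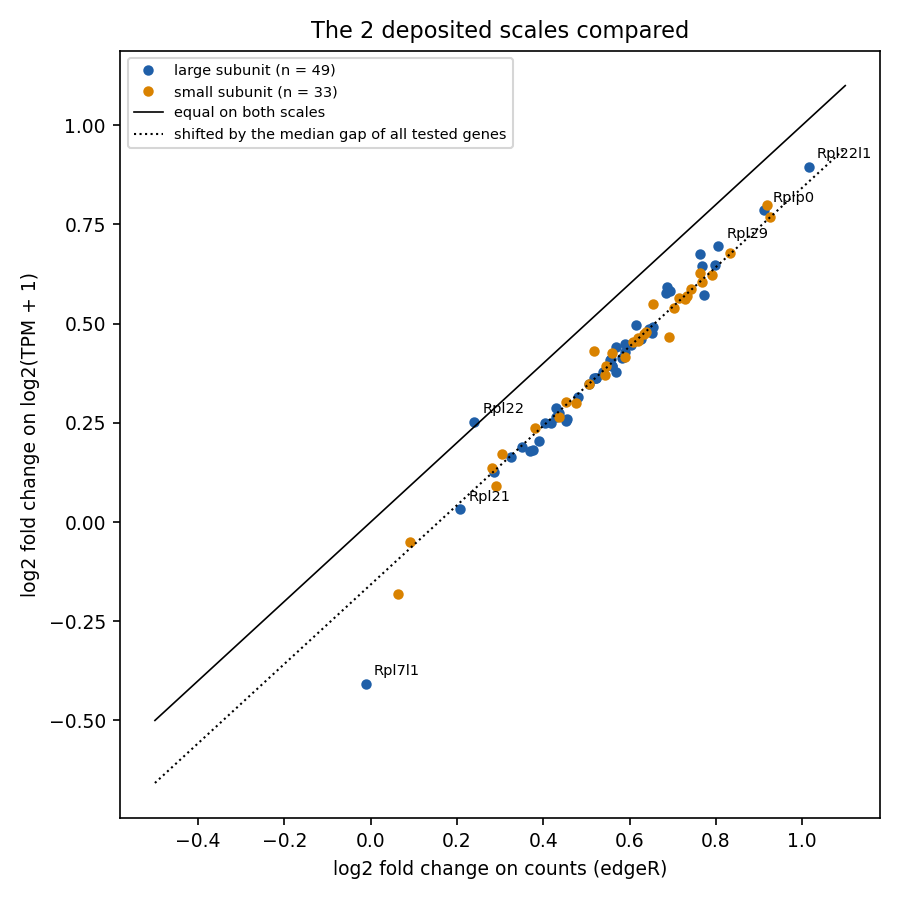
Each point is a tested ribosomal protein gene, with its log2 fold change on counts (horizontal) against that on log2(TPM + 1) (vertical). The solid line marks equal values and the dotted line is lowered by 0.16, the median gap of all tested genes; most points lie on the dotted line, with Rpl22 above it and Rpl7l1 below it.

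Ribosomal protein transcripts are short, and short transcripts were higher in these libraries in general. When genes outside the family were divided into 4 groups of equal size by the length that counts and TPM imply, 80 of the 82 fell in the range of the shortest group and 2 in that of the second. The genes outside the family had a median log2 fold change of 0.14 in the shortest group, 0.00 in the second, -0.06 in the third and -0.09 in the longest. The part of length in the rise was not tested; within the family, the log2 fold change had an r of 0.13 with log2 CPM per TPM, which follows length. As a set of similar abundance, 2035 other genes with at least 100 CPM had a median of -0.02, 24.1% were called higher and 25.7% lower. One ribosomal RNA row, Rn18s-rs5, varied from 0.795% to 2.33% of reads in Control and from 1.63% to 3.80% in PRC1 i2KO, and without it the share of ribosomal protein genes was 3.58% and 3.55% against 5.56%, 5.501% and 5.62%.

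Other genes of the translation machinery were read from lists of names. Of ribosomal components with other names, Rack1, a scaffold on the small subunit, rose from 644 and 639 to 1144, 1091 and 1107 CPM (0.80), and Fau, a ubiquitin-like fusion, rose by 0.70. Of 19 TOP transcripts outside the family, both included, 16 rose (84.2%) and 0 fell, with a median of 0.63. The share of all tested genes called higher was 18.8%. On TPM, 11 of the 19 were called higher, where 11.9% of all genes were. Pabpc1, the poly(A)-binding protein, was the largest of the TOP transcripts named, from 660 and 637 to 1661, 1656 and 1347 CPM (1.26, edgeR adjusted p = 7.35e-05). The elongation factor subunit Eef1b2 rose by 0.94. Tpt1, a TOP transcript named after its value was seen, stood at 0.07 (edgeR adjusted p = 0.68).

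Lists of genes that build ribosomes were mixed, and their difference from ribosomal protein genes was not tested. Of 77 biogenesis factors, 32 rose (41.6%) and 0 fell, with a median of 0.31. Nhp2, of the RNA-guided pseudouridylation complex, stood at 21.5 and 24.7 against 55.5, 57.1 and 63.3 CPM (1.33), and nucleolin, Ncl, at 542 and 532 against 937, 962 and 871 CPM (0.78). Nolc1 rose by 0.84 and Nop56, of the RNA methylation complex, by 0.72. Of 15 genes of RNA polymerase I, which makes ribosomal RNA, 3 rose (Ubtf 0.42, Polr1d 0.48 and Taf1d 0.55), or 20%, close to the 18.8% of all tested genes called higher. Among 7 chaperones of single ribosomal proteins, Grwd1 alone passed (0.90), which serves Rpl3. Of 16 tested host transcripts of small nucleolar RNAs, 8 rose and 0 fell, with a median of 0.57. Mitochondrial ribosomal protein genes, which serve a separate ribosome, had a median of 0.35, with 17 of 78 higher (21.8%, also near the 18.8% of all tested genes) and Mrpl33 alone lower (-0.54). Their share of reads was 0.138% and 0.151% in Control and 0.179% to 0.188% in PRC1 i2KO. Fewer genes of these lists passed on TPM, where 17 of the 77 biogenesis factors were called higher and 1 lower. That test called 1 gene of RNA polymerase I, 4 host transcripts and 10 mitochondrial ribosomal protein genes higher, and 0 of these lower. Of all tested genes, 11.9% were called higher on TPM and 14.1% lower.

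Known regulators did not move in one direction. Of 22 genes of mTORC1 and TOP control, 7 rose (31.8%) and 4 fell (18.2%), where 18.8% of all tested genes were called higher and 15.1% lower. On TPM, only 2 of the 22 were called higher and 3 lower, where 11.9% of all genes were called higher and 14.1% lower. Deptor, an inhibitor of mTOR, rose from 19.3 and 18.2 to 78.7, 60.0 and 99.6 CPM (2.09), and Eif4ebp1, a translation repressor that mTORC1 inactivates, rose by 1.16. Tsc1, an inhibitor of the pathway, stood at 78.8 and 75.2 against 43.2, 48.2 and 47.1 CPM (-0.73), and the arginine sensor Castor1 fell by 1.71. Larp1, which binds the TOP motif and was named outside the rule for named genes, rose by 0.49. Of 11 genes of the Myc network, 4 rose and 3 fell, too few to set against those shares. Mycl rose from 7.87 and 4.82 to 30.1, 36.0 and 38.3 CPM (2.53), while Mxd4, an antagonist of Myc, fell by 0.91.

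Promoter sequences were matched for 66 of the 86 genes, 78 promoters in all, each covering 250 bases before to 50 after the RefSeq start. A C at the start followed by 4 pyrimidines was present in 17.9% of these promoters and in 2.51% of all 32851 promoters. A C followed by 7 pyrimidines within 25 bases of the start was present in 44.9% against 15.5%. Searching both strands, CCGGAAG, the core bound by ETS and GABP factors, was found in 34.6% against 8.86%. AAGATGGC, the YY1 core, was found in 10.3% against 2.75%, and GGGCGG, bound by SP factors, in 59.0% against 35.7%. The E-box CACGTG, bound by Myc and others, was found in 10.3% against 7.15%, TATAAA in 8.97% against 13.6% and CCAAT in 30.8% against 37.4%. These are matches of letters, not sites shown to be bound.

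Within the family, genes with and without these features are given side by side, and their difference was not tested. The 32 tested genes with the longer pyrimidine run had a median log2 fold change of 0.58, with 31 called, and the 30 without it had 0.59, with 25 called. The 25 with CCGGAAG had a median of 0.62, with 23 called, and the 37 without it 0.58, with 33 called. The windows of 60 bases around the match are printed for 3 genes with large rises and for Rps21, which did not pass, to show a match in both kinds, with the match in capitals on either strand (GRCm38.p6, 5′ to 3′ on the gene's strand).
Rps18, chr17:33955790-33955849, minus strand: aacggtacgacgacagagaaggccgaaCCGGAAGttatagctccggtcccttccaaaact
Rps6, chr4:86857426-86857485, minus strand: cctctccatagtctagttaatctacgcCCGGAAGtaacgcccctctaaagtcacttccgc
Rplp2, chr7:141447516-141447575, plus strand: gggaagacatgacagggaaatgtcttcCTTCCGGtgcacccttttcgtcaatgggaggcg
Rps21, chr2:180257264-180257323, plus strand: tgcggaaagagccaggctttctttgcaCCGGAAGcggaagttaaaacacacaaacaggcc
The match began 157 bases before the start of Rps18, 91 before that of Rps6, 108 before that of Rplp2 and 88 before that of Rps21.

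Markers of other cells and states moved with the same libraries. Their counts stand beside 18.8% of all tested genes called higher and 15.1% called lower. All 7 cycling genes were higher in PRC1 i2KO, with summed levels of 62.4 and 47.4 CPM in Control and 610, 662 and 469 CPM in PRC1 i2KO. Of 10 markers of the upper follicle and interfollicular epidermis 9 were higher, with summed levels of 631 and 568 against 7068, 7435 and 6778 CPM, and all 8 of the sebaceous gland were higher, with 221 and 215 against 3103, 2907 and 2488 CPM. Immune markers summed to 30.9 and 26.3 against 91.5, 106 and 72.4 CPM, mostly Cd74, with Lyz2 at 0 in every library. Melanocyte markers summed to 169 and 156 against 63.8, 67.6 and 63.1 CPM, mostly Mitf. They did not move together: of 4 tested, 1 was higher and 1 lower, and the median log2 fold change was 1.21. Fibroblast markers summed to 73.8 and 71.8 against 32.9, 32.9 and 32.7 CPM, with 3 of 4 tested lower and 1 higher. Markers of endothelium, red blood cells, Merkel cells and muscle each summed to under 5 CPM in every library, with Krt20 of Merkel cells and Hbb-bt of red blood cells at 0 throughout. The summed cycling, epidermal and sebaceous levels were separate between groups, like the ribosomal protein share, and their part in its rise was not tested. PRC1 i2KO replicate 3 was the lowest of its group in cycling markers and the highest in bulge markers. Its share of ribosomal protein reads was 5.41% of all counts, beside 5.40% and 5.41% in PRC1 i2KO replicates 1 and 2. Without Rn18s-rs5 it was 5.62%, beside 5.56% and 5.501%. Whether the share followed these markers between libraries was not tested.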

How the data were processed

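RNA was measured in 5 libraries (2 Control, 3 PRC1 i2KO) as mapped from the sample titles; the library called Control replicate 3 carries another number in its description. The deposited table holds, per the file headers, a count and a TPM column for each library. Fractional values (in 9.06% of genes) show the counts to be expected counts estimated by the authors; the authors scaled TPM to gene length and a fixed total, which removes depth. Tools listed without a role in the submitters' processing notes are RSEM 1.3.3, STAR 2.7.9a and DESeq2 1.38.2, with build mm39. The annotation and the use of strand were not given in the sources used here, so overlapping genes and near-identical copies are uncertain.

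Expected counts were rounded and tested with edgeR 4.0.16 (R 4.3.3): filterByExpr, TMM factors (0.983 to 1.02), robust quasi-likelihood F test, genotype as the only term, Benjamini-Hochberg over 15665 genes, threshold 0.05. The SE is the log2 fold change divided by the square root of F. TPM was tested with limma 3.58.1 (trend, robust) on log2(TPM + 1) over the same genes. Near copies were found with BLAST 2.17.0 in GENCODE transcripts, and promoters came from RefSeq, both on GRCm38 and used for sequence alone. Both tests were checked on simulated counts. The limma check used log2 CPM of these counts rather than TPM, and its recovery is not given here. The edgeR test recovered 25.4% of genes planted at a 1.5-fold change, 53.7% at 2-fold and 83.3% at 4-fold. The planted genes were drawn from tested genes of all levels, and 8 other genes were called falsely. Alternatives were other scalings and filters, DESeq2 1.42.0, a replicate block, TPM settings and leaving out each library; merging near copies, leaving out both libraries numbered 3 and removing Rn18s-rs5 were added after seeing the data.

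The genes, lists and the rule for named genes were chosen with earlier results of these data known. The rule took role and paralog sets whatever their result, the 6 largest and 6 smallest changes, the 6 highest and 6 lowest levels, every gene that did not pass, up to 10 called on 1 scale only, up to 4 called genes of each other list, and the targeted genes. Some genes it took are not reported here.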

Additional observations from a re-analysis of the deposited data

How the results depend on the processing

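Across the other scalings, filters, DESeq2 and the replicate block on counts, 70 to 75 ribosomal protein genes were called higher and 0 lower. The count was 57 to 75 when 1 library was left out, 75 with near copies merged and 78 without both libraries numbered 3, where Rpl21, Rpl24, Rpl29, Rpl30 and Rps21 were gained. With 1 library left out, all genes called were 3322 to 5856 and all genes called lower were 1359 to 2757; the lowest counts came without Control replicate 3. On TPM, 1866 genes were called higher against 2939 on counts, and the median log2 fold change of ribosomal protein genes was 0.42. The count on TPM was 50 to 71 under other pseudocounts, filters and TMM scaling. It was 37 with the replicate block and 22 to 58 higher and 0 to 1 lower when 1 library was left out; the lowest came without Control replicate 3 (22), and leaving out Control replicate 1 gave 28 and PRC1 i2KO replicate 1 or 2 gave 26. The 1 called lower was Rpl7l1, without Control replicate 1.

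Libraries of the 2 shared numbers were not paired by the labels. Their deviations from group means correlated at 0.074 (number 1) and 0.115 (number 3) over all genes and at 0.625 and 0.671 over ribosomal protein genes. Control replicate 1 and PRC1 i2KO replicate 2, of unlike numbers, gave 0.043 and 0.449. With 2 Control libraries, the deviations of one mirror those of the other, so these values do not single out a pairing by number. With the replicate block on counts, 74 of these genes were called, with Rps25 lost and Rpl29 and Rpl30 gained.

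The share of ribosomal protein genes in Control and PRC1 i2KO was 3.65% and 5.70% of protein-coding reads, 3.59% and 5.56% without mitochondrially encoded genes, 12.2% and 16.4% of TPM, 5.56% in PRC1 i2KO without Rn18s-rs5 and 5.48% there with pseudogene rows added. The sign of Rpl7l1 turned to 0.019 when scaled by library totals, 0.029 with the block, 0.188 without Control replicate 3, 0.001 and 0.022 without PRC1 i2KO replicates 1 and 2, and 0.157 without both libraries numbered 3, with a range of -0.174 to 0.188 when 1 library was left out. That of Rps27l turned to -0.181 on TPM, -0.005 without Control replicate 1, -0.081 without PRC1 i2KO replicate 3 and -0.002 without both numbered 3 (-0.081 to 0.144 when 1 library was left out), and that of Rps27rt to -0.052 on TPM. The cause was not tested. The other results were counted per named ribosomal protein gene and per alternative setting, so a gene could count more than once. Of these results, 58 lost and 17 gained a call and 650 did neither. Ribosomal protein genes that the rule did not name were left out of these counts. With 2 Control libraries, changes the size of the smaller rises lie near the threshold.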
